A study of Homo sapiens with 6 samples.

Results

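The cystatins are small protein inhibitors of papain-like cysteine proteases, among them the lysosomal cathepsins, and some members also inhibit legumain. Stefins A and B (CSTA, CSTB) lack a signal peptide and act mainly inside cells, whereas the cystatins of the CST series carry one and are mostly secreted. Cystatins SN, SA, S and D (CST1, CST2, CST4, CST5) are best known from saliva, cystatin C (CST3) is made by most cell types, cystatin M/E (CST6) and stefin A belong to the stratified epidermis, and cystatin F (CST7) is a leukocyte protein. The 9 genes described here, CST1 to CST7 and CSTA and CSTB, were found by their symbols among the 19899 genes of the deposited table, and all 9 were present. The family was selected on its difference between BRG1 and Control in these same samples, so the values of its members are given as a description, with their spread but without p-values.

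RNA was sequenced from COV434, an established ovarian tumor cell line that the study places among its lines of SCCOHT, the hypercalcemic small cell carcinoma of the ovary that lacks BRG1. The gene SMARCA4 encodes BRG1, which drives the remodeling of nucleosomes by SWI/SNF complexes. Control cells received the empty plasmid pCDNA3-neo and BRG1 cells the plasmid PBJ5-BRG1 (3 biological replicates each). Both groups also received the puromycin resistance plasmid pBABE-puro, were put on puromycin (2 to 3 µg/ml) 24 hours after transfection and were harvested 3 days later, so all samples are selected, transfected cultures of 1 line.

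Each gene has an estimated count, and the 6 samples held between 29699741 and 63613710 of them. Counts divided by the DESeq2 size factor of a sample are called normalised counts. SMARCA4 ranged from 1439 to 1675 normalised counts in Control and from 78589 to 108655 with BRG1, plasmid transcripts included. SMARCA2, the other ATPase gene, did not exceed 35.7 in any sample. Of 6 granulosa cell markers, FOXL2 and AMHR2 stayed at 3 counts or fewer in every sample, and AMH lay at 227 to 455 over both groups. DESeq2 called 1 of the 6 higher and 0 lower, against 11.0% and 1.84% of all genes tested. The 1 was CYP19A1 (15.3, 22.8 and 31.7 in Control and 455, 260 and 251 with BRG1). BRG1 sample 3 was the shallowest library and held the lowest level of every salivary-type cystatin among the BRG1 samples.

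Because CST1, CST2, CST4 and CST5 resemble each other, their sequences come first. All 4 have 3 exons and lie on the minus strand of chromosome 20 in GRCh38 (GENCODE release 44), CST4 at 23685640 to 23689038, CST1 at 23747562 to 23751268, CST2 at 23823769 to 23826729 and CST5 at 23875934 to 23879748. The longest coding run that CST1, CST2 and CST4 share base for base covers 87 coding bases, 274 to 360 counted from the A of the start codon. It is shown because a read of 78 bases from it, taken alone, cannot be placed among these 3 genes. The reads were paired, so the other read of a pair may still place it. Capitals mark the 13 bases of the aligned CST5 stretch that differ.

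CST1, CST2 and CST4: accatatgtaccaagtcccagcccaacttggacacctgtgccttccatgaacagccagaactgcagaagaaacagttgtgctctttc
CST5: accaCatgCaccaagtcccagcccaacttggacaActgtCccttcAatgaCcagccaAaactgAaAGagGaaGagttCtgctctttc

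Over the whole coding sequence CST1 was identical to CST4 at 92.7% of aligned positions, to CST2 at 91.3%, to CST5 at 71.3% and to CST3 at 69.8%. Of the 672 windows of 78 bases in the CST1 transcript, 86 (12.8%) occur unchanged in a transcript of another gene, which is CST2 or CST4. The same held for 86 of 672 windows in CST4 and 10 of 669 (1.49%) in CST2. None of the windows of CST5, CST3, CST6, CST7, CSTA or CSTB was shared (0 windows each). By this measure of single reads the division is least certain for CST4 and CST1. Read pairs were not examined, so the shares of windows can overstate the uncertainty. They count exact matches only, so they can also understate it. Windows that differ by 2 bases or fewer from a stretch of another of these 4 genes or CST3 were more frequent. They made up 38.2% of the windows in CST1, 43.75% in CST4, 19.7% in CST2 and 0.737% in CST5. A window of CST5 differs from the nearest stretch of CST1, CST2, CST3 or CST4 by a median of 16.5 bases, against 4 in CST1, 7 in CST2 and 3 in CST4.

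**Figure D1:**
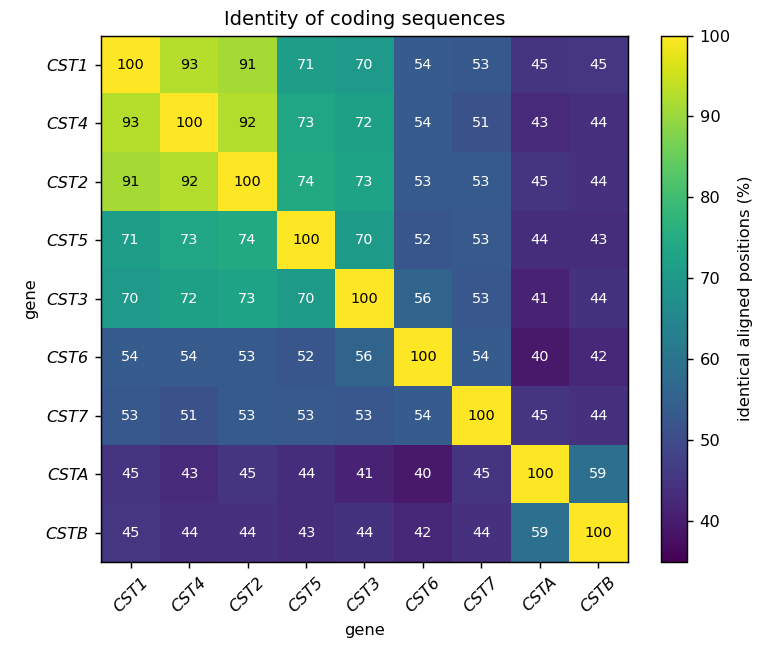
Share of identical positions (%) between the aligned coding sequences of each pair of the 9 cystatin genes, with both axes listing the genes. CST1, CST2 and CST4 form a block above 91% (91.3% to 92.7%), whereas CST5 stands at 71.3% to CST1 and CSTA and CSTB at 58.7% to each other.

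The members fell into 3 patterns. CST1, CST2, CST4 and CST5 were near absent in Control and present in every BRG1 sample, CST3 and CSTB were abundant in both groups, and CSTA, CST6 and CST7 were at or close to 0 in both. DESeq2 called 5 of the 9 members higher (CST1, CST2, CST3, CST4, CST5) and 0 lower, against 11.0% of all 15991 genes tested that were called higher and 1.84% that were called lower. edgeR called 4 members higher, without CST3, and 0 lower, against 9.57% and 1.02% of 14246 genes. CST6 and CST7 had no DESeq2 adjusted p, and CSTA, CST6 and CST7 were not in the edgeR fit, so these could not be called there. At an unadjusted DESeq2 p under 0.05, 0 members were lower. In the same 5 members every BRG1 sample lay above every Control sample, which was so for 15.5% of the 18096 genes with a count, and 0 members lay below, against 8.83% of genes. With a replicate block, DESeq2 and edgeR both called 5 members higher, against 13.4% and 13.7% of genes, and 0 lower, against 6.62% and 5.68%. Because the family was chosen with this contrast known, nothing is read from these counts. A filter on low values kept 7 members with more than 3 counts in some sample, CST6 and CST7 being the others.

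**Figure D2:**
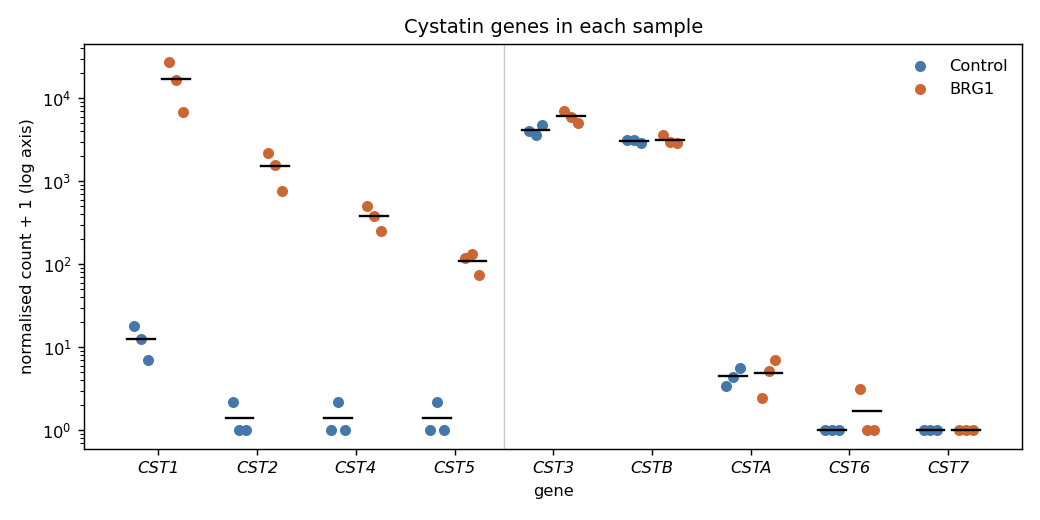
Normalised count plus 1 (log axis) of the 9 cystatin genes in each of the 3 Control and 3 BRG1 samples, where each point is a sample and the bar is the group mean. CST1 lies between 6.04 and 17.0 in Control and between 6928 and 27181 in BRG1 samples, CST3 and CSTB stay between 2885 and 7137 in both groups, and CSTA, CST6 and CST7 do not exceed 6.02.

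CST1, which encodes cystatin SN, had the highest level of the family in BRG1 samples. Its normalised counts were 17.0, 11.7 and 6.04 in Control samples 1 to 3 and 27181, 16615 and 6928 in BRG1 samples 1 to 3. The groups are far apart, and within BRG1 the first sample is the highest and the last the lowest. CST1 rose from 11.6 ± 5.49 to 16908 ± 10130 (SD, n = 3), with a log2 fold change of 10.55 ± 0.52 (SE, DESeq2). Setting samples of the same number side by side, BRG1 was 1598, 1415 and 1147 times Control. The 3 Control samples held 32 counts together. Counts pooled within each group and corrected by the summed size factors give a ratio of 1787. Its 95% interval of 1266 to 2613 covers counting error only (exact binomial). This pooled ratio gives deeper libraries more weight, and the ratio of the normalised means was 1458. The ratios with counting intervals below are pooled in the same way. Without BRG1 sample 3 the log2 fold change was 10.96, and without BRG1 sample 1 it was 10.04.

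CST2, which encodes cystatin SA, followed at a lower level. Its normalised counts were 1.21, 0 and 0 in Control and 2208, 1593 and 771 in BRG1 samples 1 to 3. The Control value stands for 1 count in all. The ratio of BRG1 to Control was 5044, with a counting interval of 905 to 199244, so that its size is known only to within orders of magnitude and cannot be ranked against that of CST1.

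CST4, which encodes cystatin S, had normalised counts of 0, 1.17 and 0 in Control and 506, 381 and 248 in BRG1 samples. Control again held 1 count in total, and the ratio was 1218 with a counting interval of 218 to 48147. CST5, which encodes cystatin D, had 0, 1.17 and 0 in Control and 118, 131 and 73.0 in BRG1 samples, with a ratio of 341 and a counting interval of 60.8 to 13491. CST5 is the 1 of these 4 genes that was highest in BRG1 sample 2 rather than in sample 1. It is also the 1 that shares no read-length window with the others, and it was present in all 3 BRG1 samples (163, 158 and 48.9 estimated counts).

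When the 4 genes were added up, which removes the question of how reads were divided among them, the sum went from 12.8 ± 6.20 to 18918 ± 10998 normalised counts (SD, n = 3). The log2 fold change of the sum was 10.57 ± 0.51 (SE, DESeq2). CST1 made up 90.6%, 88.8% and 86.4% of the sum in BRG1 samples 1 to 3. For each 100 counts of CST1 there were 8.12, 9.59 and 11.1 of CST2, 1.86, 2.29 and 3.58 of CST4, and 0.435, 0.789 and 1.05 of CST5. The minor members thus took a larger part where CST1 was lower, and the ratios among the 4 genes were not the same in the 3 BRG1 samples. How much of the CST2 and CST4 values comes from reads of CST1 was not tested.

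CST3, which encodes cystatin C, was the abundant secreted member of the Control cells. Its normalised counts were 4093, 3625 and 4773 in Control and 7137, 5952 and 5084 in BRG1 samples 1 to 3. All BRG1 values are above all Control values, but BRG1 sample 3 is above Control sample 3 by a fold of only 1.07, against 1.74 and 1.64 in numbers 1 and 2. The means were 4163 ± 577 and 6058 ± 1031 (SD, n = 3), with a log2 fold change of 0.54 ± 0.19 (SE, DESeq2). DESeq2 called it higher, and so did DESeq2 and edgeR with the replicate number as a block, whereas edgeR and limma-voom without the block did not. Leaving out Control sample 1 or 2 or BRG1 sample 1 or 2 also ended the call, with log2 fold changes of 0.41 to 0.56.

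CSTB, which encodes stefin B, an intracellular inhibitor found in most cell types, was abundant in both groups and not called. It had 3112, 3115 and 2923 normalised counts in Control and 3638, 3023 and 2885 in BRG1 samples. The groups overlap, with means of 3050 ± 110 and 3182 ± 401 (SD, n = 3) and a log2 fold change of 0.06 ± 0.15 (SE, DESeq2).

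CSTA, which encodes stefin A, a component of the cornified cell envelope, was barely detected. Its estimated counts were 2.01, 2.87 and 6.04 in Control and 2.02, 5.04 and 4.03 in BRG1 samples, 11 in each group. The ratio of pooled counts was 0.921 with a counting interval of 0.362 to 2.34. That of the normalised means was 1.12, so no direction is read from either. CST6, which encodes cystatin M/E, was listed at 0 in 5 samples and held 2.99 counts in BRG1 sample 1, so no fold is given. CST7, which encodes cystatin F, was at 0 in all 6 samples. A count of 0 allows up to 0.0472 CPM in the deepest library and 0.101 CPM in the shallowest (3 counts of the library total, counting error only).

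Levels of different genes were compared as normalised counts per kilobase of the Ensembl canonical transcript (588 to 891 bases for the members). In Control, CST3 (5250 ± 728 per kilobase) and CSTB (5187 ± 188) did not differ beyond their spread and held nearly all of the family's total, in which the 4 salivary-type genes took 0.0733% to 0.232%. In BRG1 samples the order was CST1 (22574 ± 13525), CST3 (7639 ± 1300), CSTB (5411 ± 682), CST2 (2043 ± 967), CST4 (505 ± 172) and CST5 (142 ± 40.4; SD, n = 3). The sample ranges of neighbours in this order did not overlap, although CST1 in BRG1 sample 3 (9249) was close to CST3 in BRG1 sample 1 (9001). The 4 salivary-type genes took 72.5%, 66.4% and 48.6% of the family's total in BRG1 samples 1 to 3. Among 18214 genes with a transcript length, CST1 moved from rank 11190 in Control to rank 128 in BRG1 samples, while CST3 stood at 564 and 362 and CSTB at 572 and 526.

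**Figure D3:**
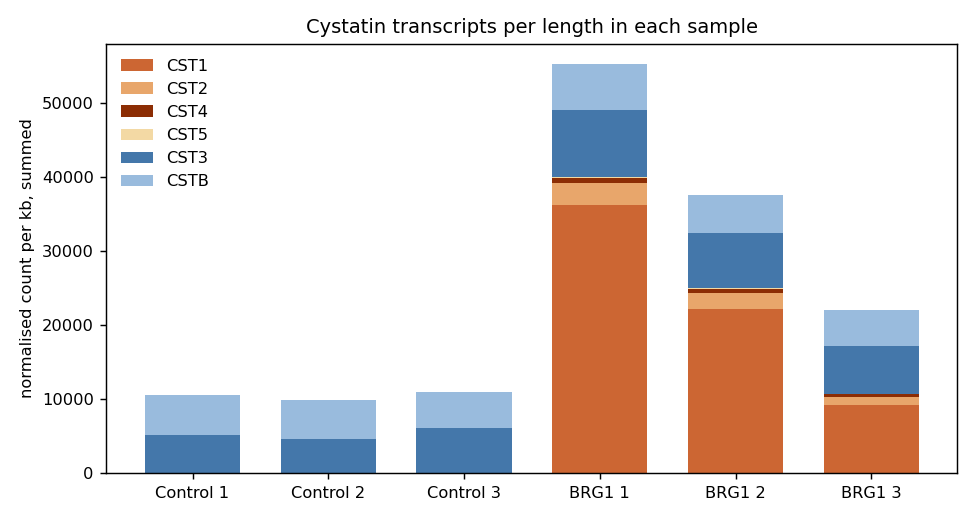
Normalised counts per kilobase of the cystatin genes, stacked for each Control and BRG1 sample. The Control bars consist of CST3 and CSTB, and in the BRG1 bars CST1 is the largest part, shrinking from 65.7% in sample 1 to 42.0% in sample 3.

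The position of the members in the genome was examined next, because the CST genes lie in a cluster. The cluster, from CSTL1 to CST5, holds 10 cystatin genes of the table over 454 kb of chromosome 20 (23426104 to 23879748). The 4 salivary-type genes occupy 1 end of it without any other gene of the table between them, and CST3 is their next neighbour (23626706 to 23638473). At the other end CSTL1 and the testis or epididymis genes CST8, CST9 and CST9L were at 0 in all 6 samples, and CST11 held 1.00 count in 1 Control sample. On the far side of CST5 the nearest gene of the table, GGTLC1, held no more than 1.00 count. On the other side NAPB (372 ± 15.0 in Control and 443 ± 65.7 in BRG1 samples), GZF1 (3020 ± 1243 and 2747 ± 1240) and NXT1 (2103 ± 550 and 2022 ± 438; SD, n = 3) were expressed and not called.

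Within 500 kb of the cluster, 1 of the 7 genes that are not cystatins was called higher by DESeq2, and by edgeR, and 0 lower. Over all genes DESeq2 called 11.0% higher and 1.84% lower, and edgeR 9.57% and 1.02%, so nothing is read from this count. Only 4 of the 7 exceeded 3 counts in any sample. The called gene was THBD, which encodes thrombomodulin, a receptor that binds thrombin. It had 2.42, 0 and 0 normalised counts in Control and 191, 187 and 34.3 in BRG1 samples. Its ratio was 235 with a counting interval of 64.8 to 1948. CD93, which lies between THBD and the cluster, was at 0 in all samples. CST7, 1070 kb beyond CST5, was likewise at 0, and CSTA, CSTB and CST6 lie on chromosomes 3, 21 and 11.

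**Figure D4:**
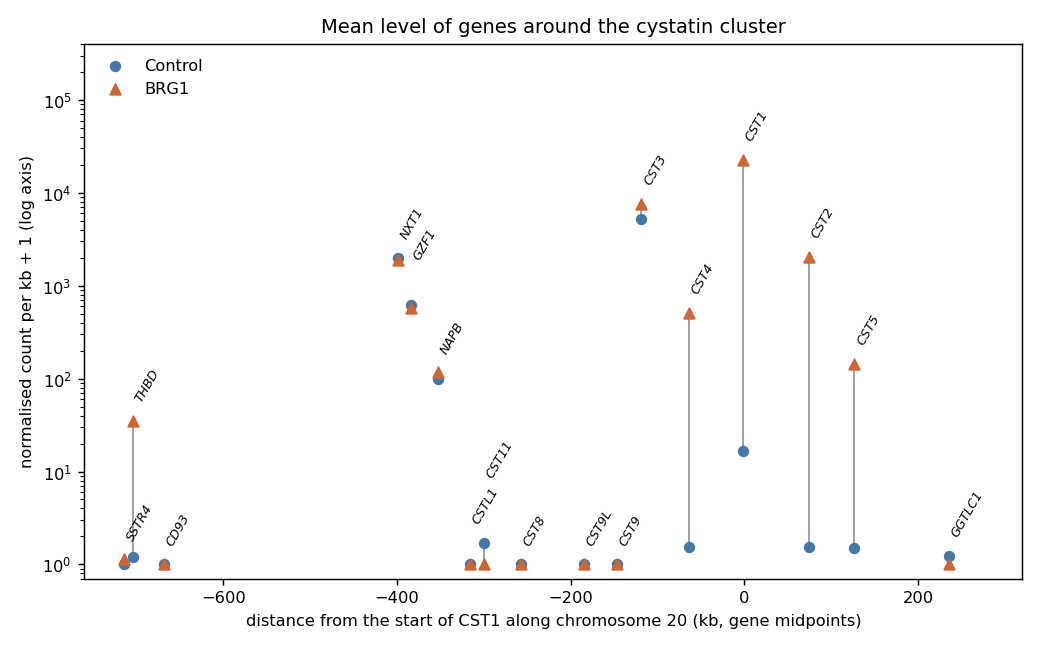
Mean normalised count per kilobase plus 1 (log axis) in Control (circles) and BRG1 samples (triangles) for the 17 genes of the table in and around the cystatin cluster, by distance of the gene midpoint from the start of CST1 (kb). The mean per kilobase goes from 15.5 to 22574 for CST1, 0.542 to 2043 for CST2, 0.522 to 505 for CST4 and 0.518 to 142 for CST5. CST3 next to them starts at 5250 per kilobase, and the 5 cystatin genes to the left stay at or near 0.

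Promoter sequences in the RefSeq table (GRCh38.p14) matched 2 of the 9 members, CST3 and CST5, a neighbour that was already abundant and a member that was near absent in Control. The 250 bases before each start are shown with CG dinucleotides in capitals. CST3 is at chr20:23637956-23638205 and CST5 at chr20:23879749-23879998, both on the minus strand. The RefSeq start of CST3 differs from that of the GENCODE gene model, and its window lies inside that model.

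CST3: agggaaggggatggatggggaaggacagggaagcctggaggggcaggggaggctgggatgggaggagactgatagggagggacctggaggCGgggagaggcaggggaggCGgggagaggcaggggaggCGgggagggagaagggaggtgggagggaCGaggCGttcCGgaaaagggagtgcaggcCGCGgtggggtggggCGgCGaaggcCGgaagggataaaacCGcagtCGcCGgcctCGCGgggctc
CST5: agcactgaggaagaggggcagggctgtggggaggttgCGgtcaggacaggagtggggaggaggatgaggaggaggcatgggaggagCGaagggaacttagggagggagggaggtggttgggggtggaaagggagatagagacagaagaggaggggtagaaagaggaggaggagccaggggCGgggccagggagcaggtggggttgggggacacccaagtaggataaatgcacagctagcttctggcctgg

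CST3 holds 16 CG dinucleotides and CST5 holds 3, against a median of 11 over 35093 promoters of this length. Their GC contents are 70.8% and 62.4%. The AP-1 motif, searched as TGACTCA and TGAGTCA, which are each other's reverse complement, occurs in neither window (0 of 2) and in 4.20% of all promoters. AP-1 sites elsewhere were not searched.

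The proteases that cystatins bind were then compared, over a list of 11 papain-like cathepsins and legumain (12 genes). DESeq2 called 5 of the 12 higher and 0 lower, against 11.0% and 1.84% of all genes tested. At an unadjusted DESeq2 p under 0.05, 0 were lower as well. edgeR called 3 higher and 0 lower, against 9.57% and 1.02% of genes. CTSZ had no DESeq2 adjusted p and was not in the edgeR fit, so neither could call it. With so few of all genes called lower, 0 of 12 is not read as a result about the proteases. The median log2 fold change of the list was 0.51, against -0.01 over all genes tested, and 9 of 12 were above 0. The list was chosen with earlier results of these data known. Its calls, its median and the adjusted p values below are therefore given as a description, and nothing is read from the count called higher.

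CTSV, which encodes cathepsin V, a close relative of cathepsin L known from thymus, rose in every BRG1 sample. It had 821, 891 and 1084 normalised counts in Control and 4586, 4095 and 4186 in BRG1 samples, with no overlap and little spread in either group. It rose by a log2 fold change of 2.20 ± 0.16 (SE), at adjusted p values of 6.0e-39 in DESeq2 and 0.000101 in edgeR. CTSL, which encodes cathepsin L, had 2527, 2506 and 2770 in Control and 4436, 3809 and 3677 in BRG1 samples, a log2 fold change of 0.61 ± 0.14 (SE; DESeq2 adjusted p 0.000251, edgeR 0.00980). CTSV and CTSL share no window of 78 bases with another gene (0 windows).

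CTSO, which encodes the little-studied cathepsin O, rose from 32.8 ± 10.0 to 90.6 ± 18.7 (SD, n = 3), with a DESeq2 adjusted p of 0.00202 and an edgeR adjusted p of 0.0382. CTSS, which encodes cathepsin S of antigen-presenting cells, had 11.7, 8.99 and 6.10 in Control and 46.7, 69.7 and 12.4 in BRG1 samples, so that BRG1 sample 3 nearly met the Control range. Its DESeq2 adjusted p was 0.0250 and its edgeR adjusted p 0.0792. CTSC, which encodes cathepsin C, an activator of granule proteases, had a log2 fold change of 0.64 with a DESeq2 adjusted p of 0.0454. Its call was lost under edgeR (adjusted p 0.146) and with the replicate block (DESeq2 adjusted p 0.0698). The 5 calls fell to 3 without BRG1 sample 1, Control sample 2 or Control sample 3, and to 2 without BRG1 sample 2.

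The 3 proteases with the highest level per kilobase were CTSB, LGMN and CTSL. CTSB, which encodes cathepsin B, had 8961, 8882 and 9587 in Control and 16164, 11329 and 11319 in BRG1 samples, without overlap. Its DESeq2 adjusted p was 0.0600 and edgeR adjusted p 0.0925, whereas with the replicate block DESeq2 and edgeR called it higher (adjusted p 0.00367 and 0.0331). LGMN, which encodes legumain, had means of 3446 ± 207 and 4204 ± 287 (SD, n = 3) and was not called (DESeq2 adjusted p 0.154). In BRG1 samples CST1 stood at 22574 per kilobase beside 3466 for CTSB, 2403 for CTSL, 2123 for LGMN and 984 for CTSV.

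**Figure D5:**
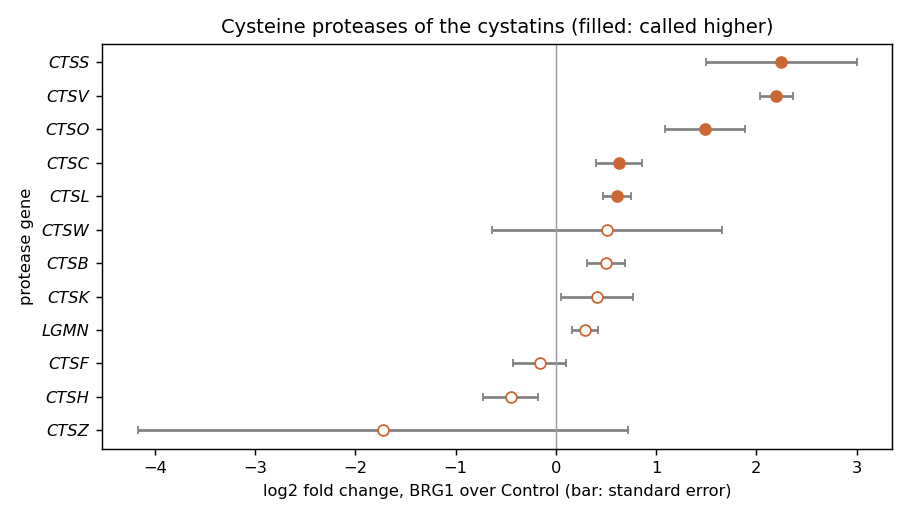
Log2 fold change of BRG1 over Control for 11 cathepsin genes and legumain, with the DESeq2 standard error as bars, where filled points were called higher. CTSV stands at 2.20 with a short bar and CTSS at 2.25 with a long one. CTSH and CTSF lie below 0 without being called, and so does CTSZ (-1.73, with the longest bar), which had no adjusted p and could not be called.

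Of 9 further genes of the cystatin superfamily that are not members, DESeq2 called 1 higher and 0 lower (0 lower at an unadjusted p under 0.05). Over all genes tested 11.0% were called higher and 1.84% lower, so nothing is read from this count. FETUB alone among the 9 had a DESeq2 adjusted p, so DESeq2 could call no other. None of the 9 was in the edgeR fit, because of low counts, so edgeR could call none. No Control sample exceeded 2.00 counts in any of them, so a lower level could not be seen. The 1 call was FETUB, which encodes fetuin-B, a liver protein that inhibits astacin-type metalloproteinases and not cathepsins. It was at 0 in Control and at 15.3, 4.40 and 7.12 normalised counts in BRG1 samples, at least 9.51-fold higher with the floor of 3 counts taken over the group. Its DESeq2 call was lost with the replicate block (adjusted p 0.0703). AHSG reached 6.00 counts in a single sample and had no DESeq2 adjusted p.

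Markers of the cells in which these cystatins are known were compared beside them. Of 13 keratinocyte markers DESeq2 called 7 higher and 0 lower, against 11.0% and 1.84% of all genes tested. Their summed normalised count was 1091 to 1527 in Control and 2519 to 9072 in BRG1 samples. Most of the Control sum came from KRT10, which was not called (755 to 1161 in Control and 702 to 1203 with BRG1). DSG3 went the other way, at 263, 249 and 219 in Control and 111, 180 and 186 with BRG1, and was not called. IVL, the envelope protein involucrin, had 1.52 to 3.64 in Control and 2159, 1241 and 477 in BRG1 samples 1 to 3, the same order of samples as CST1, and TGM1, the enzyme that crosslinks the envelope, had 50.1 to 64.8 and 813, 548 and 236. TP63, LOR, SPRR1A and SPRR1B did not exceed 15.2 in any sample, and neither did the epidermal cystatins CSTA and CST6. The part of these markers in the cystatin values was not tested. Of 18 salivary gland markers 11 stayed at 3 counts or fewer in all 6 samples, STATH, SMR3A, PIP and CA6 at 0. Their summed level was 42.9 to 70.2 in Control and 29.3 to 47.9 in BRG1 samples. The 1 salivary marker called higher was BPIFA2 (1.21, 0 and 0 against 15.9, 13.3 and 4.47), and 0 were called lower. Of 12 leukocyte markers DESeq2 called PRF1 and LYZ higher (2 genes) and 0 lower. Their summed level was 1871 to 2871 in Control and 2458 to 3977 with BRG1, most of it from CD68 (1179 to 3553) and PTPRC (336 to 722), while CD2 was at 0. Beside the 11.0% of all genes called higher and 1.84% called lower, nothing is read from the salivary and leukocyte calls.

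The genes whose levels followed CST1 most closely over the 6 samples were KRT6A, CLIC5, CTHRC1, LAP3 and LMCD1, with Pearson correlations of 0.9997, 0.9997, 0.9997, 0.9997 and 0.9991 on the log2(normalised count + 1) scale. They were taken from 14224 genes that had 10 or more counts in 3 or more samples. The 6 points fall into 2 groups that the transfection sets apart, and 1345 genes had a correlation above 0.9, so that a high value mainly restates the difference between groups. Their sizes differed widely. KRT6A had a log2 fold change of 8.27, CLIC5 of 6.88 and LMCD1 of 5.15, while LAP3 had one of 1.64 and CTHRC1 of 1.57. In the same list CST2 stood at rank 14, CST4 at 142 and CST5 at 228, and CST3 at 1684.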

How the data were processed

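COV434 RNA libraries (500 ng of RNA, poly(A) selected, not stranded) gave paired reads of 78 bases. Per the labels, the authors aligned them with STAR (2.5.3a) to hg38, quantified transcripts with Salmon (0.8.2; versions from the submitters' processing notes) and used tximport to reach gene level. What they deposited are estimated counts for each gene symbol, scaled by transcript length and library size. They are not divided by depth, and reads that fit several genes were shared out by Salmon's model, which bears on CST1, CST2 and CST4.

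The estimated counts were rounded, and the Wald test of DESeq2 (1.42.0, R 4.3.3), named in the study's methods, was fitted to the 18096 genes with a count, BRG1 against Control, with independent filtering and Benjamini-Hochberg adjustment over all genes. Genes were called at an adjusted p under 0.05. The alternatives were edgeR (4.0.16, quasi-likelihood, TMM), limma-voom (3.58.1), other size factors, filters and thresholds, a replicate block, each sample left out, and CST1, CST2, CST4 and CST5 summed. All tools were tested on simulated counts, where the false discovery rate of DESeq2 exceeded the nominal level and that of edgeR without the block did not, so edgeR counts stand beside those of DESeq2. A total of 3 counts was taken as the floor. Ratios given with a counting interval divide the pooled counts of the groups, corrected by their summed size factors. The intervals are exact binomial ones that cover counting error only.

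The labels number the replicates and do not say whether same-numbered samples were paired, but those samples were the more alike. Deviations from the group means correlated at 0.340, 0.301 and 0.464 between same-numbered samples, and between -0.354 and 0.0618 otherwise. The study describes the replicates as biological. Members, lists and the rule for naming genes (all members, called proteases and the 3 highest per kilobase, other cystatins with more than 3 counts, called or nearest flanking genes, 5 genes most like the most abundant member) were chosen with earlier results of these data known. Sequences came from GENCODE release 44 and RefSeq, both GRCh38. The authors used an earlier GENCODE release, so gene models may differ. The start of the coding sequences is not reported here.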

Additional observations from a re-analysis of the deposited data

How the results depend on the processing

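CST1, CST2, CST4 and CST5 were called higher under the 15 alternatives that keep them apart, their sum under the 15 other than itself, and SMARCA4 under all 16. The count of members called higher (5) was 4 or 5 throughout, the difference being CST3, and 0 were called lower. The family was selected on this contrast in these same samples, so its repeated calls are a description and not support. No alternative reversed a called value. The proteases called higher (5) came to 3 under each of edgeR, limma-voom, the 0.01 threshold and an added minimum fold of 2. Omitting single samples gave 2 (BRG1 sample 2 omitted) to 6 (BRG1 sample 3 omitted). The further cystatin superfamily gene called higher (1, FETUB) became 0 under settings that do not test it. These were edgeR with or without the replicate block, limma-voom and the filter of 10 counts in 3 samples. It also became 0 at an adjusted p under 0.01 and with the replicate block under DESeq2, and was 0 or 1 when single samples were omitted. For the other settings the cause was not tested. With the replicate block under DESeq2 the log2 fold change was 10.47 for CST1 and 0.54 for CST3. Against DESeq2 without it, the block changed the calls of CTSB, CTSC and FETUB. It changed no other call among the members and these 2 lists. Counting error limits the folds of CST2, CST4 and CST5, whose Control samples held 1 count each in all.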
